A study of Homo sapiens with 33 samples.

Results

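The integrin and laminin chains were examined as 34 genes, chosen by gene symbol from a given list out of the 29744 genes in the count and TPM tables. They encode 17 integrin alpha chains, 7 integrin beta chains and 10 laminin chains, of which 5 are alpha, 3 beta and 2 gamma chains. No measured value entered that choice. A further 2 chain genes that the list leaves out (ITGB2 and ITGAD) are named where a member needs them as a partner.

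Messenger RNA was sequenced as 33 libraries, 3 replicates of each of 11 established lines of human high-grade serous ovarian carcinoma in 4 families. OVCAR3, OVCAR4, PEA1 and PEO1 are the sensitive lines of their families and the rest are platinum-resistant, a role that comes from the study's text since the labels name the line only. OVCAR3 ResA, OVCAR3 ResB, OVCAR4 ResA and OVCAR4 ResB are separate lines selected from OVCAR3 or OVCAR4 with repeated pulses of cisplatin and not kept in the drug afterwards. PEA2 comes from the patient that gave PEA1, and PEO4 and PEO6 from the patient that gave PEO1. No line was treated before collection as far as the labels say, and each family had its own medium except that the PEA and PEO families shared 1, so the OVCAR3 and OVCAR4 families cannot be told apart from their media. Each line is a single selection or a single tumour derivative, and no label says that its 3 replicates were separate cultures, so the p-values measure the spread between these libraries, which may be technical.

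Integrins are cell surface receptors made of 1 alpha and 1 beta chain, and the pair sets which matrix protein is bound. ITGA3, ITGA6 and ITGA7 make laminin receptors, ITGA1, ITGA2, ITGA10 and ITGA11 collagen receptors, and ITGA5 and the alpha V chain ITGAV receptors for proteins such as fibronectin and vitronectin that carry the RGD motif. Laminins are trimers of an alpha, a beta and a gamma chain that build the basement membrane under epithelia, and LAMA3 and LAMB3 encode chains of the laminin that anchors epithelial cells through hemidesmosomes. Ovarian carcinoma cells meet laminin, collagen and fibronectin when they attach to the peritoneal lining.

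A library held 18058985 to 43394009 estimated counts (median 30611448), and the 34 genes took 0.201% to 0.856% of them (median 0.407%). Epithelial and serous carcinoma markers were at 1 TPM (a transcript level scaled for transcript length and library total) or more for 8 of 8 genes in 8 lines, 7 of 8 in OVCAR4 and OVCAR4 ResB and 6 of 8 in PEA1, where their summed level was 404 to 446 TPM against 2285 to 8019 TPM in the other lines. The 5 fibroblast, 5 leukocyte, 4 endothelial and 3 platelet markers summed to at most 27.3, 7.23, 14.5 and 0.86 TPM in any library. By line means the highest fibroblast markers were LUM at 17.7 TPM in OVCAR4 ResA and FAP at 13.9 TPM in PEO1, the highest endothelial markers CDH5 at 7.02 TPM in PEA2 and PECAM1 at 6.76 TPM in OVCAR3 ResB, and the highest leukocyte marker PTPRC at 3.3 TPM in PEA2. The part of these markers in the results was not tested. In these bulk libraries, fewer cells of a kind and less RNA per cell cannot be told apart. The mitochondrial ribosomal RNA share of counts differed between replicates of several lines. In PEA1 it was 4.02%, 7.62% and 3.59%, highest in replicate 2, and the calls of single genes in PEA2 are given with all 3 replicates. In OVCAR3 it was 2.39%, 4.93% and 7.52%. The share was 5.18%, 14.8% and 12.0% in OVCAR4, 9.23%, 2.02% and 2.09% in OVCAR4 ResA, 13.1%, 2.47% and 2.39% in OVCAR4 ResB, and 5.97%, 8.88% and 1.12% in OVCAR3 ResB. Replicate 1 therefore stood apart in the OVCAR4 family and replicate 3 in OVCAR3 ResB. The calls described in these lines are given with the DESeq2 adjusted p without that replicate, left out of both lines compared. Without replicate 1, OVCAR4 kept 14.8% and 12.0% against at most 2.47% in its resistant lines. The share of all genes called rose to 40.8% and 46.1%. Without replicate 3, OVCAR3 ResB kept 5.97% and 8.88% against 2.39% and 4.93% in OVCAR3. In these smaller fits the mitochondrial share and resistance cannot be told apart, so their p-values cannot show a call to be free of it.

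Of the 34 genes, 15 had a mean of at least 1 TPM in every line, 13 in some lines and 6 in no line. The 15 were ITGA3, ITGA6, ITGAE, ITGAV, ITGB1, ITGB4, ITGB5, ITGB6, ITGB8, LAMA3, LAMA5, LAMB1, LAMB2, LAMB3 and LAMC1, which include the chains of the epithelial laminin receptors and of the laminins those receptors bind. The 6 low genes were ITGAL, ITGAM and ITGAX, alpha chains of leukocyte integrins, with ITGA8, ITGA10 and LAMA2, the alpha chain of muscle laminin. ITGA8 exceeded 3 counts in no library. ITGB1, the common partner of most alpha chains, was the highest beta chain in every line by its mean, from 193 ± 31.8 TPM in PEO6 to 2016 ± 541 TPM in PEA1 (SD, n = 3). The highest alpha chain was ITGA3 in 7 lines (OVCAR3 ResA, OVCAR3 ResB, PEA1, PEA2, PEO1, PEO4 and PEO6) and ITGAV in the 3 lines of the OVCAR4 family and OVCAR3. In OVCAR3 that order rested on replicate 1 (42.7 TPM ITGAV against 24.3 TPM ITGA3), since ITGAV was the lower in replicates 2 and 3 (21.0 against 22.6 and 17.9 against 22.8 TPM), and in OVCAR4 replicate 2 had 29.9 TPM ITGAV against 31.6 TPM ITGA3. The ratio of ITGB1 to the summed alpha chains ran from 4.06 ± 0.212 in OVCAR3 down to 0.717 ± 0.238 in PEO6 (SD, n = 3), so that on the TPM scale PEO6 was the only line with less ITGB1 than alpha chain RNA.

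**Figure D1:**
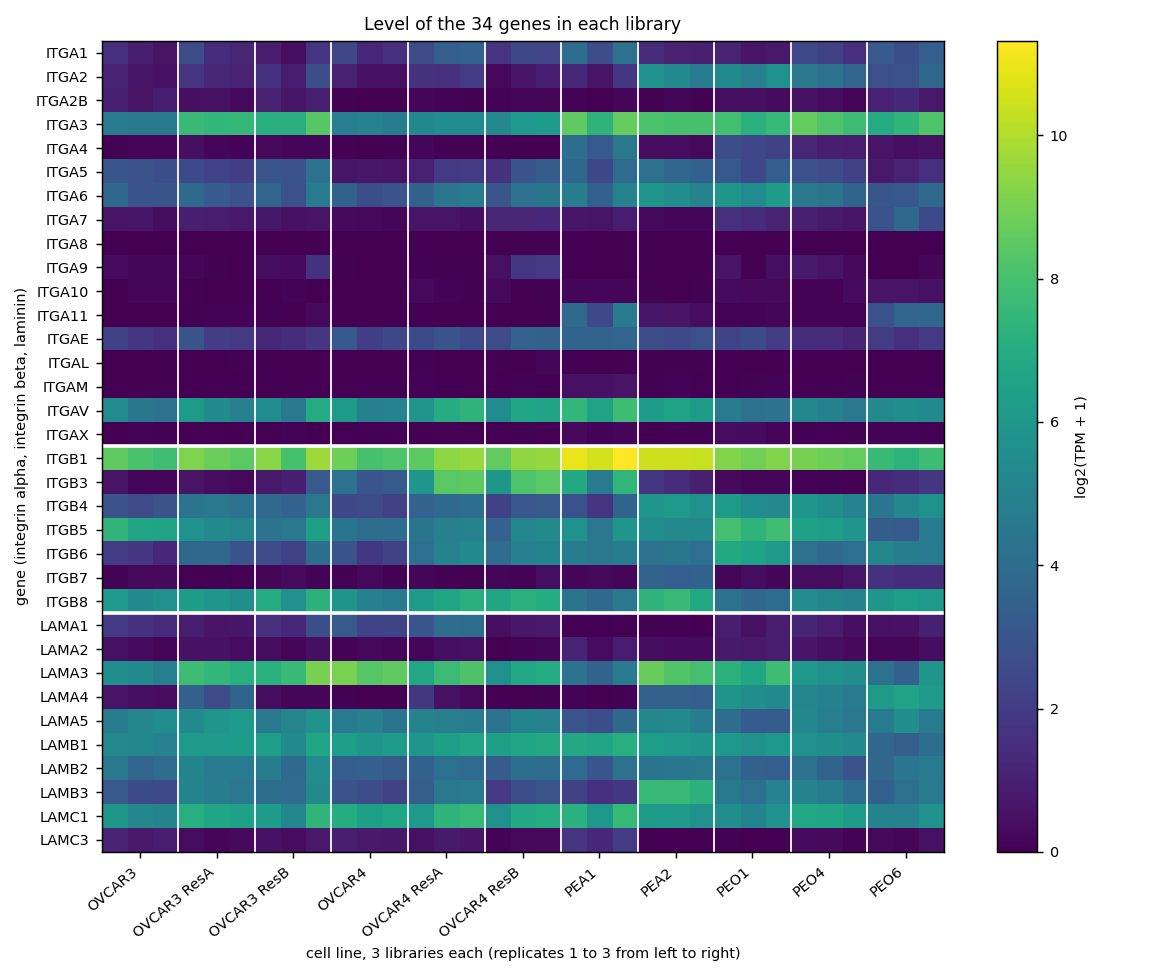
Level of the 34 genes (rows, as log2(TPM + 1)) in each of the 33 libraries (columns, 3 per line). ITGB1 is the brightest row of the beta chains in every line, and the rows of ITGA8, ITGAL, ITGAM and ITGAX stay dark throughout.

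The resistant lines were compared with the sensitive line of their family to ask which chains differed. A gene was called when the DESeq2 adjusted p was under 0.05. Beside each count stands the share of all tested genes called in that pair and direction. In OVCAR3 ResA, 19 of the 34 were called (44.9% of all genes), 14 higher (22.0%) and 5 lower (22.9%). In OVCAR3 ResB 8 were called (7.67%), 7 higher (4.1%) and 1 lower (3.57%). In OVCAR4 ResA 9 were called (11.9%), 8 higher (6.68%) and 1 lower (5.22%), and in OVCAR4 ResB also 9 (17.9%), 6 higher (9.09%) and 3 lower (8.77%). Among the lines derived from patients, PEA2 had 22 called (47.0%), 10 higher (23.3%) and 12 lower (23.8%). PEO4 had 17 (33.3%), 7 higher (16.6%) and 10 lower (16.7%), and PEO6 had 22 (41.4%), 11 in each direction (21.2% and 20.3%). The 2 resistant lines of the OVCAR3, OVCAR4 and PEO families share their sensitive libraries, so their counts are not independent. Between 2 and 10 of the 34 had no adjusted p in a pair because their counts were too low, and of the tested members 61.3%, 27.6%, 37.5%, 32.1%, 68.8%, 53.1% and 71.0% were called in these 7 pairs in the same order. The median log2 fold change of the members was 0.54, 0.53, 0.74, 0.14, -0.10, -0.28 and -0.23, while that of all genes lay between -0.02 and 0.02. The 3 replicates decided many of the calls in the selected lines. Without replicates 1, 2 and 3 in turn the number called was 14, 4 and 4 in OVCAR4 ResA and 15, 7 and 7 in OVCAR4 ResB, while the share of all genes called went to 40.8%, 2.53% and 1.94% and to 46.1%, 5.03% and 4.26%. In OVCAR3 ResB it was 4, 4 and 6 (3.87%, 3.02% and 12.5% of all genes). In PEA2 the lower calls went from 12 to 5, 9 and 7 and the higher calls to 10, 9 and 11 (26.7%, 37.1% and 44.7% of all genes), so that the excess of lower calls was not kept. In PEO4 there were 4 higher and 7 lower without replicate 1 and 4 higher and 6 lower without replicate 2 (18.3% and 22.8%). With edgeR in place of DESeq2, 0 of the 34 were called in OVCAR4 ResA (1.4% of all genes) and 3 in OVCAR3 ResB (4.23%). In OVCAR4 ResA 11 of the 34 were at an unadjusted edgeR p under 0.05, a cut for which the share of all genes was not counted.

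In 1 or more pairs 31 of the 34 passed, and 16 of them moved up in some pair and down in a different one. Of the 19798 genes with an adjusted p in any pair, 76.3% passed in 1 or more pairs and 31.1% in both directions. The shares of the 33 members among them were 93.9% and 48.5%. LAMA3 was called in all 7 pairs (as were 0.318% of all genes), higher in OVCAR3 ResA, OVCAR3 ResB and PEA2 and lower in OVCAR4 ResA, OVCAR4 ResB, PEO4 and PEO6. ITGB8 rose in 5 pairs and fell in none, and ITGB5 fell in 4 and rose in none. ITGB4, LAMA4, LAMA5 and LAMB3 each rose in 4 pairs without falling in any, LAMA4 with a call in OVCAR4 ResA that was lost without replicate 1 (2.59, 0.424 and 0.183 TPM, DESeq2 adjusted p = 0.00441, and 0.2 without it). How many of all genes had 4 or 5 calls in 1 direction and none in the other was not counted. These runs of calls therefore have no background. ITGA8, ITGA10 and ITGAL were called in no pair.

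**Figure D2:**
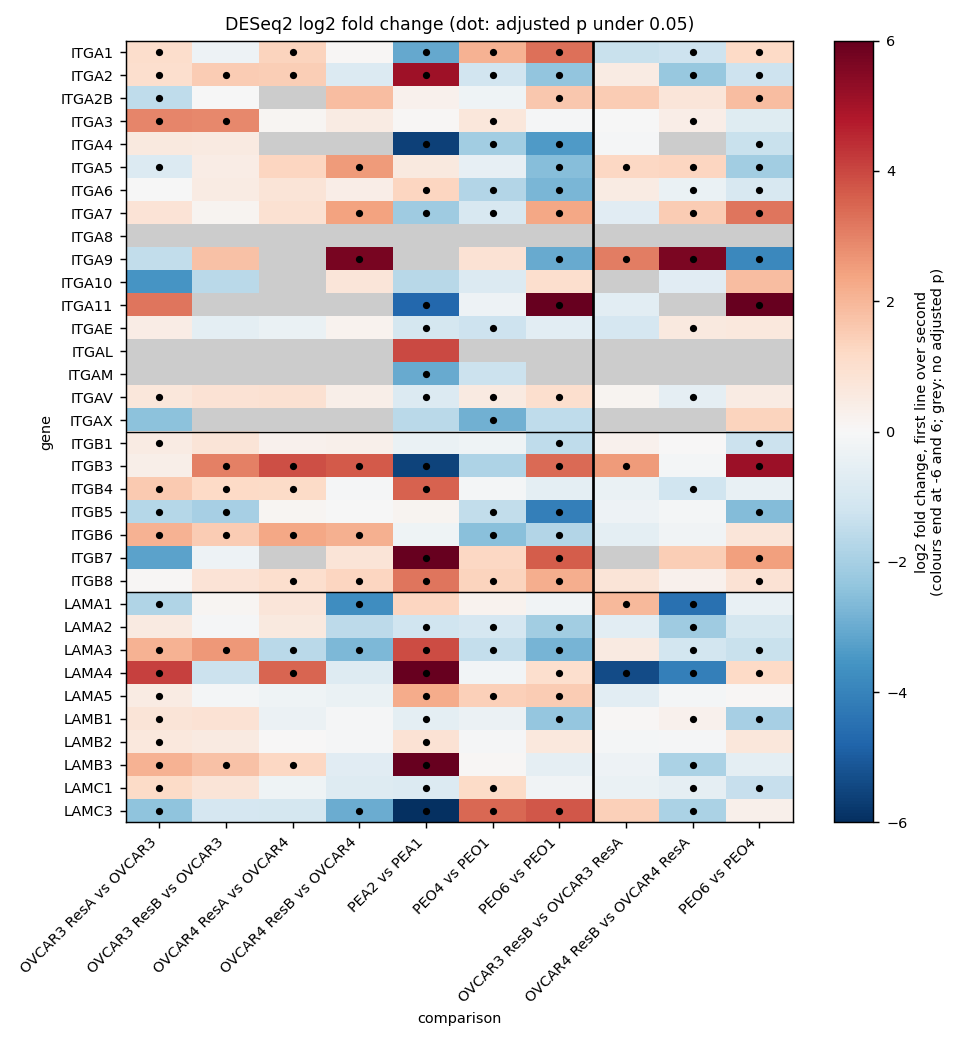
DESeq2 log2 fold change of each gene (rows) in the 7 resistant-sensitive pairs and the 3 comparisons between resistant lines of a family (columns, first line over second), with a dot where the adjusted p was under 0.05 and grey where there was none. LAMA3 has a dot in all 7 pairs but changes colour between them.

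Among the chains of laminin receptors, ITGA3 showed the clearest difference in the OVCAR3 family. It was at 24.3, 22.6 and 22.8 TPM in OVCAR3, at 205, 179 and 186 TPM in OVCAR3 ResA and at 137, 139 and 333 TPM in OVCAR3 ResB. Every resistant library was above every OVCAR3 library. The log2 fold change was 2.91 ± 0.10 (SE) in ResA, a 7.54-fold rise (DESeq2 adjusted p = 2.45e-180), and 2.90 ± 0.33 in ResB (DESeq2 adjusted p = 8.04e-16, and 5.4e-25 without replicate 3). In the other families ITGA3 was called only in PEO4 (300 ± 90.2 against 191 ± 46.4 TPM), and in PEA1 it was already at 309 ± 128 TPM (SD, n = 3).

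ITGA6 and ITGB4 together form the receptor of hemidesmosomes. ITGB4 rose in OVCAR3 ResA, OVCAR3 ResB, OVCAR4 ResA and PEA2. In PEA1 it was at 6.31, 2.38 and 11.7 TPM and in PEA2 at 61.3, 65.6 and 54.2 TPM, without overlap (log2 fold change 3.54 ± 0.33, DESeq2 adjusted p = 1.19e-24). In OVCAR3 ResA it reached 19.8 ± 2.11 TPM against 5.97 ± 0.812 TPM (1.59 ± 0.14). The calls in OVCAR3 ResB (1.20 ± 0.32) and OVCAR4 ResA (1.14 ± 0.33) each depended on single replicates, with DESeq2 adjusted p values of 0.131, 0.361 and 0.000477 without replicates 1, 2 and 3 of the OVCAR3 ResB comparison and of 0.000118, 0.166 and 0.735 without those of the OVCAR4 ResA comparison. ITGA6 moved in opposite directions in the patient-derived families. It rose in PEA2 (46.1 ± 13.2 against 23.1 ± 11.4 TPM, log2 fold change 1.27 ± 0.30) and fell in PEO4 and PEO6. In PEO1 it was at 63.0, 44.9 and 75.2 TPM, in PEO4 at 21.8, 19.3 and 11.7 TPM and in PEO6 at 7.17, 7.56 and 13.8 TPM, a log2 fold change of -1.78 ± 0.22 and -2.76 ± 0.22 (DESeq2 adjusted p = 4.06e-15 and 4.08e-35). By the lower of its chains, the ITGA6-ITGB4 pair was at 49.0 TPM in PEO1, 46.1 TPM in PEA2 and no more than 17.6 TPM in the other lines. ITGA7, whose integrin binds the laminins of LAMA1 and LAMA2, was under 2 TPM in every line but PEO6 (8.13 ± 4.54 against 1.51 ± 0.406 TPM in PEO1, 2.30 ± 0.31), where LAMA1 and LAMA2 were at 0.632 and 0.195 TPM.

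LAMA3, the alpha chain of the laminin that these receptors bind in epithelia, had the highest mean of the 5 laminin alpha chains in 10 of the 11 lines. In OVCAR3 it was at 45.9, 40.5 and 28.2 TPM, in OVCAR3 ResA at 221, 178 and 141 TPM and in OVCAR3 ResB at 148, 199 and 508 TPM. The resistant libraries did not overlap with OVCAR3 (log2 fold change 2.09 ± 0.10 and 2.61 ± 0.39, DESeq2 adjusted p = 1.55e-88 and 2.63e-09, the second 1.86e-13 without replicate 3). In PEA1 it was at 19.0, 11.3 and 24.4 TPM and in PEA2 at 409, 298 and 248 TPM, a 15.0-fold rise (3.91 ± 0.28, DESeq2 adjusted p = 4.59e-42). The summed epithelial markers moved with it, from 404 to 446 TPM in PEA1 to 4017 to 4321 TPM in PEA2, and their part in this and the other rises of epithelial chains in PEA2 was not tested. The OVCAR4 family went the other way, from 527, 323 and 379 TPM in OVCAR4 to 106, 210 and 282 TPM in OVCAR4 ResA and 50, 105 and 125 TPM in OVCAR4 ResB. Both resistant lines lay below OVCAR4 in every library (-1.61 ± 0.35 and -2.71 ± 0.34, DESeq2 adjusted p = 0.000159 and 4.1e-13). Both calls were kept without each replicate, the highest DESeq2 adjusted p being 0.0229 for OVCAR4 ResA (1.53e-11 and 2.89e-61 without replicate 1), although edgeR called no member there. In the PEO family LAMA3 fell from 156, 99.9 and 221 TPM in PEO1 to 65.1, 53.2 and 46.6 TPM in PEO4 and 17.5, 10.3 and 58.9 TPM in PEO6 (-1.43 ± 0.20 and -2.77 ± 0.28, DESeq2 adjusted p = 2e-11 and 3.86e-22).

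LAMB3, the beta chain of the same laminin, rose most in PEA2. It was at 3.69, 1.99 and 2.60 TPM in PEA1 and at 204, 194 and 154 TPM in PEA2, a 72.3-fold difference (6.18 ± 0.24, DESeq2 adjusted p = 1.84e-146). In OVCAR3 ResA it stood at 32.6, 26.1 and 21.4 TPM against 7.84, 4.88 and 4.69 TPM in OVCAR3 (2.08 ± 0.13, DESeq2 adjusted p = 2.03e-55). In OVCAR3 ResB the values were 15.0, 14.7 and 41.6 TPM, again all above OVCAR3, with a DESeq2 adjusted p of 0.000163 (0.0623 leaving out replicate 2 and 0.000406 leaving out replicate 3). In OVCAR4 ResA it rose to 18.5 ± 7.54 from 5.22 ± 1.44 TPM (1.23 ± 0.38, DESeq2 adjusted p = 0.0158, and 4.33e-09, 0.379 and 0.84 without replicates 1, 2 and 3), so that LAMB3 was called higher where LAMA3 was called lower. By line means LAMB3 was lower than LAMA3 in all 11 lines.

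Promoter windows of LAMA3 and LAMB3 are shown because both genes rose in OVCAR3 ResA, OVCAR3 ResB and PEA2. Sequences are the 250 bases before a RefSeq transcript start (GRCh38.p14), 5′ to 3′ on the gene's strand, with matches to the AP-1 motif TGANTCA in capitals. LAMA3 lies at chr18:23872770-23873019 on the plus strand and LAMB3 at chr1:209651375-209651624 on the minus strand, and a second LAMB3 start, with the window chr1:209652330-209652579, has no match.
LAMA3: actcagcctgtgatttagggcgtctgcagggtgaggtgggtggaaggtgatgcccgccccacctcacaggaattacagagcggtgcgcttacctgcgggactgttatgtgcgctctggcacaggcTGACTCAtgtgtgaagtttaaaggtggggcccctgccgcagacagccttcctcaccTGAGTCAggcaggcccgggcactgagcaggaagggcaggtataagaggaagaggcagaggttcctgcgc
LAMB3, match: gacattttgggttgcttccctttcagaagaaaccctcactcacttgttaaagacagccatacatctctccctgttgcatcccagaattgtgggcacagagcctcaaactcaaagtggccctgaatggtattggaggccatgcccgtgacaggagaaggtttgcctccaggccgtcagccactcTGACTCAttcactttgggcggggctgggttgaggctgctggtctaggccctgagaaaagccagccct
LAMB3, no match: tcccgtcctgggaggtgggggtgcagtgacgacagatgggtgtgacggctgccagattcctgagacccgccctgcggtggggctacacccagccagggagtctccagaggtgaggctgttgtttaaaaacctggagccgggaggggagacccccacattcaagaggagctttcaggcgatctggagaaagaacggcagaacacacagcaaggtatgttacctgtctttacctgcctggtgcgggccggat
The matches in LAMA3 begin 125 and 69 bases before the start, and that in LAMB3 67 bases before it. TGANTCA is its own reverse complement and was found in 7.71% of 35116 promoter windows of the RefSeq table (300 bases each, with 50 after the start). The 25 members with a window had 32 windows, of which 3 held it (in ITGA5, LAMA3 and LAMB3). The other motifs searched on both strands were CAGGTG, an E-box, and GGGCGG, the GC box. The E-box was in 20.6% of all windows and in 7 of the 32 member windows (7 members). The GC box was in 45% of all windows and in 19 of the 32 member windows (14 members). In LAMA3 an E-box shares 2 bases with the AP-1 match nearer the start. A match is only a run of letters, and no binding was measured.

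The remaining laminin alpha chains divided the lines differently. LAMA4, an alpha chain of vessel wall and mesenchymal laminins, was at 0.0758, 0.0209 and 0.0475 TPM in PEA1 and at 10.1, 10.2 and 9.4 TPM in PEA2, a fitted 209-fold difference (7.71 ± 0.47, DESeq2 adjusted p = 1.38e-58). In OVCAR3 ResA it was at 10.0, 5.26 and 11.2 TPM against 0.54, 0.386 and 0.305 TPM in OVCAR3 (4.11 ± 0.24, DESeq2 adjusted p = 2.02e-63). OVCAR3 ResB, selected from the same line, stayed at 0.286, 0.106 and 0.103 TPM. The PEO family carried LAMA4 in every line, at 48.4 ± 7.7 TPM in PEO1, 29.6 ± 5.48 TPM in PEO4 and 76.5 ± 12.3 TPM in PEO6 (SD, n = 3), and PEO6 was above PEO1 (1.02 ± 0.22). LAMA5, the alpha chain found in most epithelial basement membranes, rose in PEA2 (34.9 ± 7.32 against 8.56 ± 4.12 TPM, 2.24 ± 0.29), PEO4 (28.4 ± 7.4 against 11.1 ± 3.95 TPM, 1.42 ± 0.17) and PEO6 (32.2 ± 12.5 TPM, 1.5 ± 0.26). LAMA1, the alpha chain of embryonic basement membranes, was above 1 TPM in OVCAR3, OVCAR3 ResB, OVCAR4 and OVCAR4 ResA, and fell in OVCAR4 ResB to 0.574 ± 0.186 from 5.35 ± 2.5 TPM (-3.73 ± 0.39, DESeq2 adjusted p = 2.55e-19, and 2.6e-33 without replicate 1).

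As shares of the summed alpha chain level, LAMA3 held 49.4% ± 11.2 and LAMA5 47.0% ± 12.3 in OVCAR3 (SD, n = 3), so the order of these was not settled there. LAMA3 then held 72.4% ± 8.56 in OVCAR3 ResA and 86.3% ± 2.52 in OVCAR3 ResB. In OVCAR4 it held 93.0% ± 2.05, and 80.4% ± 8.10 and 75.7% ± 3.60 in OVCAR4 ResA and OVCAR4 ResB, while LAMA5 went from 5.81% ± 2.15 to 13.7% ± 7.40 and 23.8% ± 3.58. In the PEO family the share of LAMA3 was 70.8% ± 8.99 in PEO1 and 48.3% ± 1.71 in PEO4. In PEO6, LAMA4 led with 62.2%, 61.2% and 44.4% in its libraries, against 15.4%, 6.92% and 38.4% for LAMA3.

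**Figure D3:**
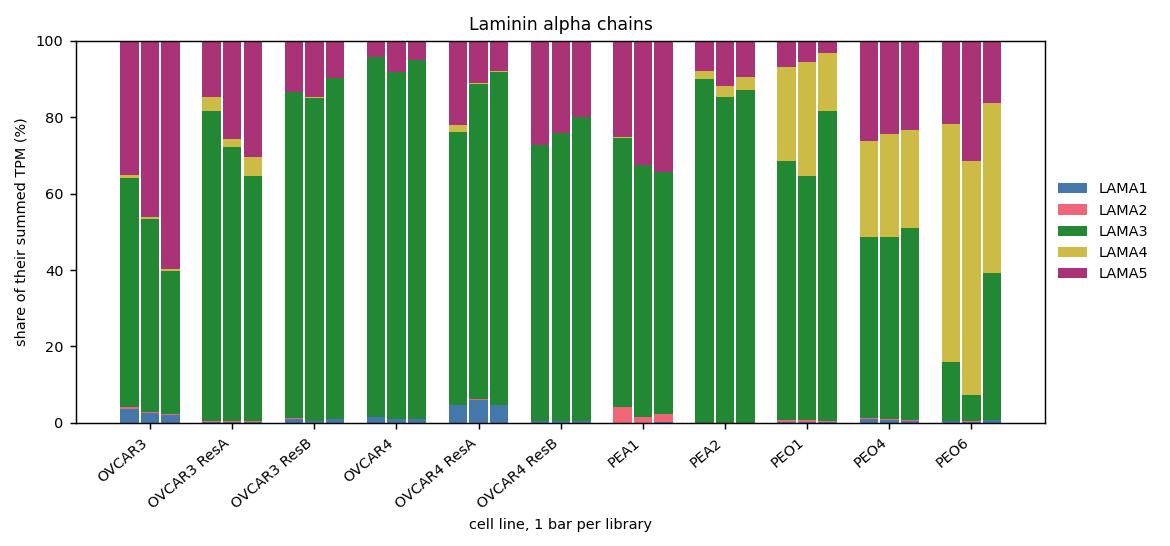
Share of the summed TPM of the 5 laminin alpha chains (percent, y axis) held by each chain in each library (1 bar per library). LAMA3 fills most of the bar in OVCAR4 (93.0% by mean) and LAMA4 most of it in PEO6 (55.9%).

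Of the beta and gamma chains of most laminins, LAMB1 and LAMC1 were at 10 TPM or more in every line. LAMB1 fell in PEO6 from 60.8 ± 6.8 to 12.6 ± 3.07 TPM (-2.31 ± 0.22, DESeq2 adjusted p = 2.14e-23). LAMC1 rose in OVCAR3 ResA (107 ± 24.7 against 44.1 ± 15.5 TPM, 1.16 ± 0.10) and PEO4 (95.5 ± 19.8 against 44.1 ± 9.86 TPM, 1.15 ± 0.18). LAMB2 stayed between means of 9.4 and 27.7 TPM over the 11 lines, and was called higher in OVCAR3 ResA and PEA2. LAMC3 was at 2.24 ± 0.751 TPM in PEA1 and under 1 TPM in the other lines, and in PEA2 it was at least 72.2-fold lower than in PEA1 (against 3 counts per library).

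**Figure D4:**
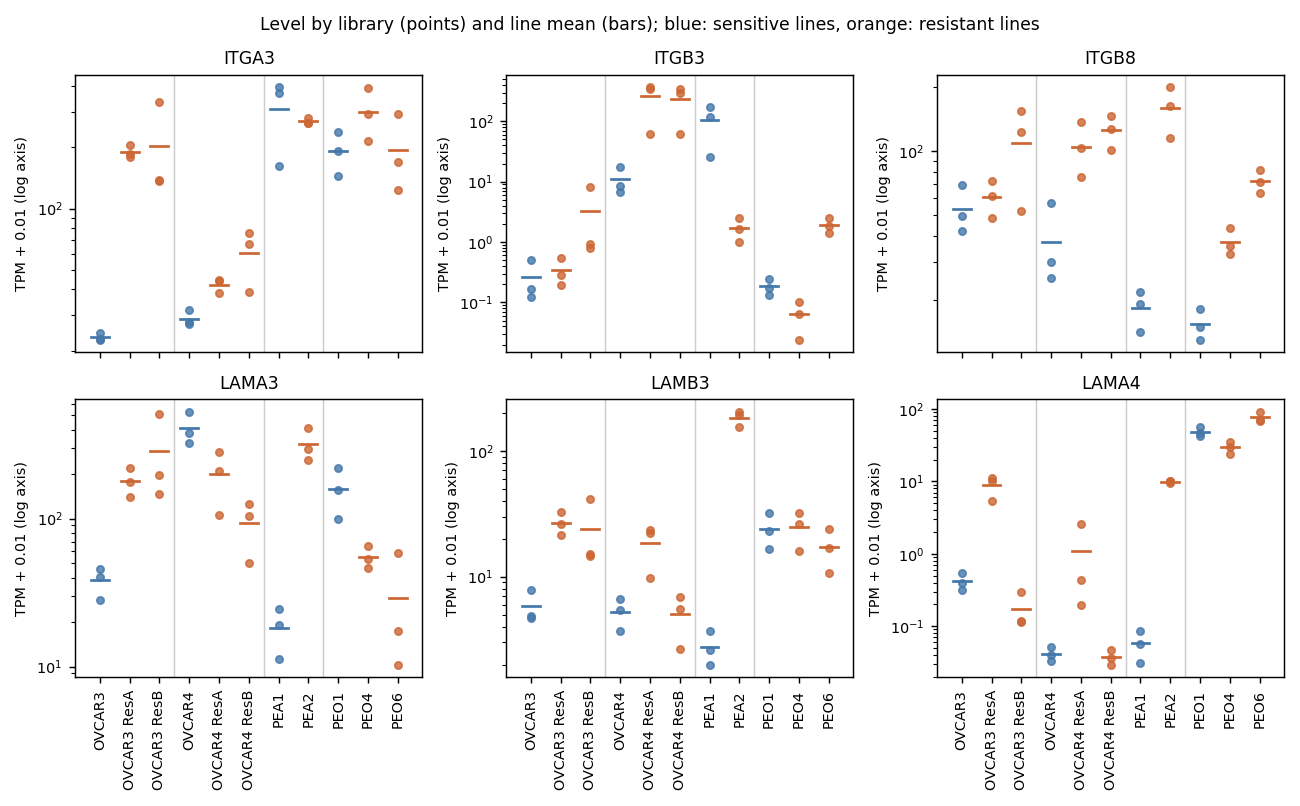
Level of 6 genes in every library (points, TPM + 0.01 on a log axis) with the line mean (bars), sensitive lines in blue and resistant lines in orange. ITGA3 separates the OVCAR3 libraries from both lines selected from them, and LAMA3 rises from PEA1 to PEA2 but falls from OVCAR4 to both of its resistant lines.

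The beta chains that pair with alpha V, ITGB1 left aside, showed exchanges of the leading chain. ITGB1 also pairs with alpha V and was the highest beta chain in every line by mean, but is not part of the shares below. ITGB3, ITGB5, ITGB6 and ITGB8 all form receptors with ITGAV, and ITGB6 and ITGB8 in particular bind and activate latent TGF-beta. ITGB3 was at 17.8, 6.84 and 8.34 TPM in OVCAR4, at 61.1, 344 and 368 TPM in OVCAR4 ResA and at 61.7, 293 and 345 TPM in OVCAR4 ResB. Every library of both resistant lines was above OVCAR4, and replicate 1 was the lowest of each (3.86 ± 0.55 and 3.69 ± 0.53, DESeq2 adjusted p = 3.03e-10 and 2.38e-10, or 14.5-fold and 12.9-fold). Both calls were kept without each replicate (DESeq2 adjusted p = 2.29e-151 and 1.92e-195 without replicate 1). In PEA2, ITGB3 fell to 2.45, 1.63 and 0.973 TPM from 117, 25.5 and 174 TPM in PEA1 (-5.54 ± 0.40, DESeq2 adjusted p = 1.32e-41), and in the PEO family and OVCAR3, OVCAR3 ResA and OVCAR3 ResB its means were 0.0534 to 3.24 TPM.

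ITGB8 was at 19.2, 14.2 and 21.7 TPM in PEA1 and at 162, 199 and 115 TPM in PEA2 (3.23 ± 0.25, DESeq2 adjusted p = 2.52e-37). In PEO1 it was at 18.2, 13.0 and 14.9 TPM, in PEO4 at 43.3, 35.8 and 32.9 TPM and in PEO6 at 63.3, 81.2 and 71.2 TPM, without overlap between any pair of the lines (1.32 ± 0.16 and 2.20 ± 0.21 against PEO1). In OVCAR4 it was at 56.7, 30.0 and 25.2 TPM, and in OVCAR4 ResA and OVCAR4 ResB at 75.0, 103 and 136 and at 101, 146 and 127 TPM (1.03 ± 0.36 and 1.27 ± 0.32, DESeq2 adjusted p = 0.0369 and 0.00092). Those last calls were lost without replicate 2 (DESeq2 adjusted p = 0.483 and 0.17) and without replicate 3 (0.97 and 0.308), and kept without replicate 1 (1.95e-10 and 7.44e-23). In the OVCAR3 family ITGB8 was not called, at 53.6 ± 14.1, 60.7 ± 11.9 and 109 ± 51.7 TPM in OVCAR3, OVCAR3 ResA and OVCAR3 ResB.

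ITGB5, a vitronectin receptor chain, fell in both resistant lines of the OVCAR3 and PEO families. In OVCAR3 it was at 169, 102 and 97.1 TPM, in OVCAR3 ResA at 51.4, 42.2 and 35.3 TPM and in OVCAR3 ResB at 19.0, 22.7 and 85.9 TPM (-1.70 ± 0.10 and -2.01 ± 0.41, DESeq2 adjusted p = 9.32e-58 and 4.45e-05, the second 8.17e-17 without replicate 3, 0.0607 without replicate 1 and 0.0402 without replicate 2). In PEO1 it was at 247, 163 and 227 TPM, in PEO4 at 87.8, 77.5 and 59.1 TPM and in PEO6 at 9.02, 8.12 and 24.8 TPM (-1.48 ± 0.17 and -4.08 ± 0.27, DESeq2 adjusted p = 2.57e-17 and 2.32e-49). The resistant libraries lay below the sensitive ones in both families. ITGB6 rose in OVCAR3 ResA (10.7 ± 3.63 against 2.32 ± 0.766 TPM, 2.08 ± 0.16), OVCAR4 ResA (16.4, 31.0 and 39.8 against 6.54, 2.56 and 3.5 TPM, 2.34 ± 0.42) and OVCAR4 ResB (25.9 ± 9.91 TPM, 2.13 ± 0.41), with, in these OVCAR4 lines, DESeq2 adjusted p values of 3.72e-36 and 1.74e-33 without replicate 1. Its call in OVCAR3 ResB (1.51 ± 0.46, DESeq2 adjusted p = 0.0192) was lost without each replicate in turn (0.0608, 0.0811 and 0.139). It fell in the PEO family, from 115, 93.0 and 68.9 TPM in PEO1 to 17.1, 14 and 16.4 TPM in PEO4 and 35.1, 26.3 and 23.8 TPM in PEO6 (-2.50 ± 0.21 and -1.75 ± 0.22).

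As shares of the summed level of these 4 chains, ITGB5 led in OVCAR3 with 68.4% ± 2.49 and ITGB8 led in OVCAR3 ResA with 53.0% ± 0.604 and in OVCAR3 ResB with 68.9% ± 12.7 (SD, n = 3). ITGB8 led in OVCAR4 with 53.0% ± 4.50. In OVCAR4 ResA, ITGB3 led with 67.8% and 64.0% in replicates 2 and 3, but in replicate 1, which had the higher mitochondrial share, it held 35.5% against 43.5% for ITGB8. In OVCAR4 ResB the ITGB3 share was likewise 32.8%, 58.0% and 63.3%. ITGB3 gave way to ITGB8 between PEA1 (49.2% ± 16.3 ITGB3) and PEA2 (71.2% ± 4.15 ITGB8), and ITGB5 led in PEO1 (66.1% ± 6.34) and PEO4 (58.2% ± 3.27) but ITGB8 in PEO6 (61.8% ± 6.34). Of the 7 resistant lines, 4 thus had ITGB8 as the leading chain and 2 had ITGB3, while PEO4 kept ITGB5. ITGAV itself was called higher in OVCAR3 ResA, PEO4 and PEO6 and lower in PEA2, with a change above 1 on the log2 scale only in PEO6 (41.9 ± 3.64 against 20.4 ± 3.29 TPM, 1.02 ± 0.21).

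**Figure D5:**
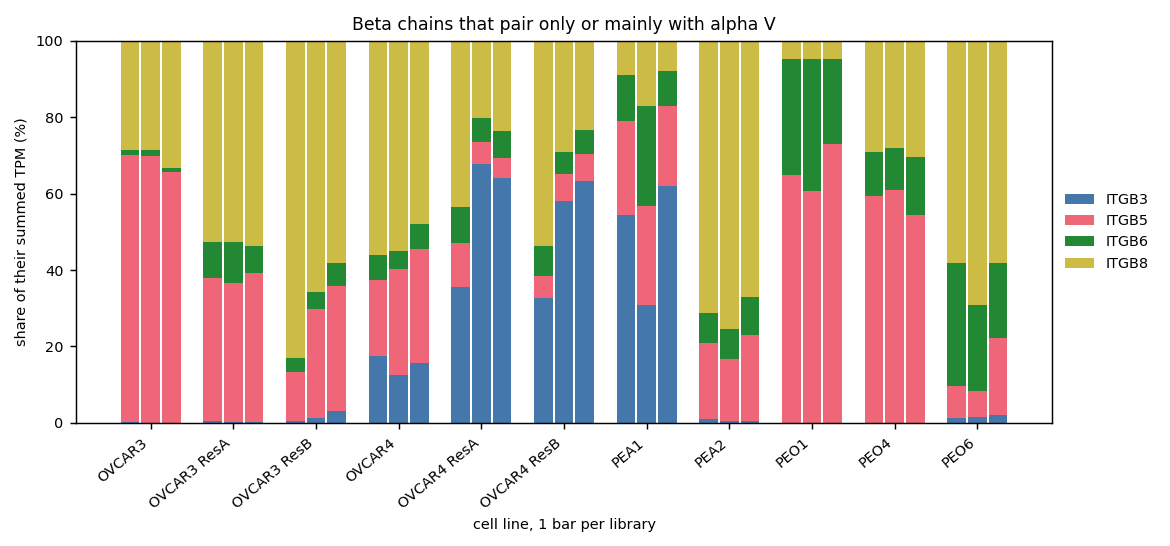
Share of the summed TPM of ITGB3, ITGB5, ITGB6 and ITGB8 (percent, y axis) held by each chain in each library (1 bar per library). ITGB5 gives way to ITGB8 from OVCAR3 (68.4% ITGB5) to OVCAR3 ResA (53.0% ITGB8), and ITGB3 expands in replicates 2 and 3 of OVCAR4 ResA and OVCAR4 ResB.

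Set beside their ligands, the alpha V receptors met little vitronectin RNA, since VTN was at no more than 0.0342 TPM by mean in any line. TGFB1 was at 2.32 to 33.8 TPM in the 11 lines. SPP1 (osteopontin), a ligand of the ITGAV-ITGB3 receptor, was at 121, 324 and 87.3 TPM in OVCAR4, OVCAR4 ResA and OVCAR4 ResB and at 339 TPM in PEA1, lines in which ITGB3 was at 11, 258, 233 and 106 TPM. By library SPP1 overlapped between OVCAR4 (109, 99.7 and 155 TPM) and OVCAR4 ResB (39.2, 107 and 116 TPM, replicate 1 the lowest), while ITGB3 was higher in OVCAR4 ResB. FN1 (fibronectin) was at 4425 TPM in PEA2 and 179 TPM in PEA1, with ITGA5, the alpha chain of its main receptor, at 13.1 ± 2.97 and 10.6 ± 5.32 TPM, and at 0.654, 0.258 and 0.0116 TPM in OVCAR4, OVCAR4 ResA and OVCAR4 ResB. ITGA5 rose in OVCAR4 ResB all the same, to 2.13, 6.6 and 8.84 TPM from a mean of 0.569 ± 0.07 TPM (2.57 ± 0.44, DESeq2 adjusted p = 2.4e-07, and 1.56e-12 without replicate 1), and fell in PEO6 to 1.28 ± 0.646 from 7.2 ± 2.45 TPM (-2.56 ± 0.31).

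Of the collagen receptor chains, ITGA1, ITGA2 and ITGA11 were each high in a few lines and ITGA10 in none. ITGA2, the alpha chain that platelets and epithelia use for collagen I, was at 1.47, 0.49 and 2.49 TPM in PEA1 and at 51.0, 41.0 and 25.3 TPM in PEA2 (5.08 ± 0.37, DESeq2 adjusted p = 7.65e-41). It fell in PEO4 and PEO6, at 17.5 ± 5.1 and 8.1 ± 3.86 TPM against 39.8 ± 10.3 TPM (-1.16 ± 0.21 and -2.39 ± 0.22). ITGA11, a collagen receptor chain of fibroblasts, was at 14.2, 4.68 and 23.3 TPM in PEA1 and 0.574, 0.508 and 0.287 TPM in PEA2 (-4.73 ± 0.38, DESeq2 adjusted p = 1.6e-33). In PEO6 it was at 6.21, 11.8 and 12.5 TPM against 0.0866, 0.0679 and 0.121 TPM in PEO1 (6.86 ± 0.40, DESeq2 adjusted p = 1.74e-64). ITGA11 was thus at 10 TPM or more by mean in 1 sensitive and 1 resistant line and under 1 TPM in the other 9. The fibroblast markers summed to 5.54 to 8.54 TPM in PEO6, with COL3A1 the highest at 6.82 TPM. Their sum was higher in PEO1 (9.09 to 18.1 TPM, FAP the highest) and only 0.175 to 0.287 TPM in PEA1. Their part in the ITGA11 result was not tested. ITGA1 ran alongside ITGA11 in these lines, falling in PEA2 (1.25 ± 0.39 against 12.7 ± 6.4 TPM, -3.08 ± 0.30) and rising in PEO6 (7.68 ± 1.89 against 0.791 ± 0.295 TPM, 3.29 ± 0.29). In PEO4, however, ITGA1 was at 3.34 TPM and ITGA11 at 0.0777 TPM. Its neighbour ITGA2 went the opposite way to ITGA1 in PEA2 and in PEO6, but not in every pair. By mean both were higher in OVCAR3 ResA than in OVCAR3 (ITGA1 2.71 against 1.16 TPM, ITGA2 1.58 against 0.744 TPM). Both were also higher in OVCAR4 ResA than in OVCAR4 (8.62 against 2.55 TPM and 2.36 against 0.64 TPM). Reads of ITGA1 and the gene PELO within it may be split differently without strand, so the ITGA1 values carry that uncertainty. The collagen I chain COL1A1 was at 88.4 TPM in PEA1 and 0.879 TPM in PEA2, opposite to ITGA2.

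The other fibronectin and leukocyte-type chains were low, with a few exceptions. ITGA4, which with ITGB1 binds fibronectin and VCAM1, was at 16.2, 8.15 and 21.2 TPM in PEA1 and at 0.299, 0.29 and 0.206 TPM in PEA2 (-5.61 ± 0.32, DESeq2 adjusted p = 2.4e-65). VCAM1, listed at 0 TPM in PEA2, was at 16.1 TPM in PEA1. ITGB7, which with ITGAE forms the receptor for E-cadherin, was under 2 TPM in every line but PEA2, at 11, 9.32 and 10.3 TPM against 0.153, 0.195 and 0.137 TPM in PEA1 (6.26 ± 0.45, DESeq2 adjusted p = 1.55e-41). ITGAE was at 5.11 ± 0.595 TPM there (11.6 ± 0.338 TPM in PEA1), and CDH1 (E-cadherin) at 204 TPM against 1.26 TPM. PEA2 was the only line in which ITGB7 was not the lower of the pair. PTPRC, a leukocyte marker, was at 3.3 TPM in PEA2, and its part in the ITGB7 result was not tested. ITGA2B, the platelet partner of ITGB3, was at most 1.05 TPM by mean and was called higher in 1 pair and lower in 1. ITGA9 was at least 25.2-fold higher in OVCAR4 ResB than in OVCAR4 (0.441, 2.59 and 2.7 TPM in OVCAR4 ResB, DESeq2 adjusted p = 2.43e-06, and 7.75e-06 without replicate 1, the lowest). ITGB2, a chain outside the 34 and the beta partner of leukocyte integrins, was called higher in all 7 pairs (in OVCAR4 ResB with a DESeq2 adjusted p of 0.00172, and of 0.00363, 0.187 and 0.348 without replicates 1, 2 and 3), from 1.61 to 35.2 TPM in the resistant lines, while its partners ITGAL, ITGAM, ITGAX and ITGAD were each under 1 TPM in every line. Of all tested genes, 0.318% were called in all 7 pairs, in either direction.

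Between resistant lines of the same family, 5 of the 34 were called in OVCAR3 ResB against OVCAR3 ResA (13.5% of all tested genes), 4 higher (7.47%) and 1 lower (6.04%). Without replicate 3 of both lines, which includes the OVCAR3 ResB library that stood apart, 1 was higher and 6 were lower (23.5% of all genes called). The balance of directions therefore rested on replicate 3. LAMA4 fell by 5.38 ± 0.49 on the log2 scale (DESeq2 adjusted p = 8.17e-26, and 6.18e-23 without replicate 3). In OVCAR4 ResB against OVCAR4 ResA, 18 were called (32.8%), 6 higher (16.2%) and 12 lower (16.5%), and 11 were called without the replicate block (12.9%). Without replicates 1, 2 and 3 in turn there were 5, 2 and 3 higher and 12, 9 and 9 lower (28.7%, 12.5% and 19.7%). LAMA1 was lower by 4.47 ± 0.17 on the log2 scale (DESeq2 adjusted p = 4.11e-147), with 0.574 ± 0.186 TPM in OVCAR4 ResB against 12.5 ± 4.78 TPM, and LAMB3 by 1.92 ± 0.15. LAMA3 was lower by 1.10 ± 0.09 in OVCAR4 ResB, although its TPM values overlapped between the lines. These 3 calls were kept without each replicate. In PEO6 against PEO4, 18 were called (18.2%), 8 higher (9.86%) and 10 lower (8.33%). Without replicates 1, 2 and 3 in turn there were 5, 3 and 10 higher and 5, 3 and 13 lower (7.62%, 4.81% and 32.7%). ITGA11 was higher by 7.19 ± 0.48 and ITGA7 by 3.22 ± 0.41, and ITGB5 was lower by 2.61 ± 0.36 and LAMB1 by 1.97 ± 0.29. LAMA3 was lower by 1.35 ± 0.40 with a DESeq2 adjusted p of 0.0074 that became 0.194 and 0.603 without replicates 1 and 2.

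Over all lines, with the counts of the replicates summed to 1 value per line and the family as a term, none of the 34 was called in the comparison of resistant with sensitive lines (DESeq2, 0.286% of all genes called). At an unadjusted p under 0.05 there were 6 (ITGB8, LAMA4, ITGAL, ITGA4, ITGB5 and ITGB4), against 2 with edgeR and 4 with limma. The share of all genes at that cut was not counted, so these counts have no background. ITGAL exceeded 3 counts in only 4 of the 33 libraries. ITGB8 had the smallest p, with a log2 fold change of 1.47 ± 0.45 and a DESeq2 adjusted p of 0.168, and LAMA4 the next, with 2.87 ± 1.07 and a DESeq2 adjusted p of 0.433. Whether the resistant-sensitive effect differed between families was tested with all 33 libraries as the units, not the line sums. That test measures the spread between libraries, and the PEA family holds only PEA1 and PEA2. Its counts therefore cannot be set against those of the comparison over lines. The effect differed for 12 of the 34 between OVCAR3 and OVCAR4 (22.6% of all genes), 25 between OVCAR3 and PEA (37.0%), 19 between OVCAR3 and PEO (32.1%), 21 between OVCAR4 and PEA (41.4%), 16 between OVCAR4 and PEO (36.0%) and 20 between PEA and PEO (43.7%).

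The partners around these chains were described from 4 lists, of ligands, basement membrane proteins, hemidesmosome proteins, and adaptors and kinases. The shares of all genes called higher and lower in each pair, given above, are the background of these counts (22.0% and 22.9% in OVCAR3 ResA, 4.1% and 3.57% in OVCAR3 ResB, 23.3% and 23.8% in PEA2, 16.6% and 16.7% in PEO4, 21.2% and 20.3% in PEO6). They were 6.68% and 5.22% in OVCAR4 ResA and 9.09% and 8.77% in OVCAR4 ResB. Of 23 other ligands, 4 were higher and 7 lower in PEA2, 4 higher and 9 lower in PEO6, and 2 higher and 8 lower in PEO4. In OVCAR3 ResA 5 were higher and 7 lower, and in OVCAR3 ResB 3 were higher and 1 lower. There were 5 higher and 4 lower in OVCAR4 ResA and 5 in each direction in OVCAR4 ResB. The collagen III chain COL3A1 was at least 210-fold higher in PEO6 than in PEO1, and VCAM1 was at least 284-fold lower in PEA2 than in PEA1. Of 17 basement membrane partners, 7 were higher and 4 lower in OVCAR3 ResA and 7 higher and 5 lower in PEA2, where NID2 (nidogen) was at 195 TPM against 2.5 TPM in PEA1 (6.44 ± 0.23). In OVCAR3 ResB 3 were higher and 0 lower, in OVCAR4 ResA 1 and 1, and in OVCAR4 ResB 3 and 1. There were 5 higher and 6 lower in PEO4 and 4 in each direction in PEO6. COL4A2 (collagen IV) fell in PEO4 to 0.134 from 18.5 TPM (-7.04 ± 0.31). Of 6 hemidesmosome partners, 3 were higher and 1 lower in OVCAR3 ResA, 3 were higher in OVCAR3 ResB and 3 in PEA2, none was called in OVCAR4 ResA or OVCAR4 ResB, 1 was higher and 3 lower in PEO4, and 4 were lower in PEO6. Their median log2 fold change was 1.36, 1.44 and 1.10 in the first set of lines, and the basal keratin KRT5 marked both ends, at 111 TPM in OVCAR3 ResA against 0.546 TPM (7.42 ± 0.57) and at 6.08 TPM in PEO4 against 165 TPM (-4.66 ± 0.20). Of 31 adaptors and kinases, 8 were higher and 13 lower in OVCAR3 ResA and 4 higher and 16 lower in PEO6. There were 6 higher and 10 lower in PEA2 and 8 higher and 12 lower in PEO4. The balance was the other way in OVCAR3 ResB (2 higher, 0 lower), OVCAR4 ResA (6 higher, 1 lower) and OVCAR4 ResB (6 higher, 2 lower). TNS4 (tensin 4) was at least 385-fold higher in PEA2 than in PEA1 and TLN2 (talin 2) fell there to 0.262 from 14 TPM (-5.44 ± 0.29).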

How the data were processed

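The study's methods and labels give mRNA libraries (KAPA mRNA HyperPrep) sequenced on a NextSeq 1000 and processed by the authors with DRAGEN base calling and the nf-core/rnaseq pipeline on GRCh38. The deposited tables hold salmon estimated counts and TPM per gene, merged over libraries. The annotation release and the strand setting are not given in the sources used here. Estimated counts were rounded to whole numbers. The members, gene lists and tests were chosen with earlier results of these data known.

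The main test was DESeq2 1.42.0 (Wald, R 4.3.3) on the 6 libraries of each pair of lines, with line and replicate number in the model as the study's methods state, no added filter and no shrinkage. Benjamini-Hochberg adjustment was over the genes that DESeq2's independent filtering and outlier check left (14993 to 18160 of 29744 per pair). Family differences came from a fit of all 33 libraries, as the mean effect of a family's resistant lines minus that of another, and the comparison over lines from counts summed per line. Alternatives were edgeR 4.0.16, TMM factors, a filter of 10 counts in 3 libraries, no replicate block, all libraries in one fit, limma 3.58.1 (trend) on log2(TPM + 1) and log2(TPM + 0.1) with rows at 0 left out, the former also with a filter of 1 TPM, and leaving out each replicate. Scripts were tested on simulated data. Replicate numbers paired the libraries (every correlation of deviations above 0.1) only in OVCAR3 ResA against OVCAR3 (0.633, 0.219 and 0.423) and OVCAR4 ResB against OVCAR4 ResA (0.632, 0.445 and 0.49).

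All 34 genes could be named. A called gene was described in full at 5 TPM or more in at least 1 of the lines and a log2 fold change of 1 or more, a listed partner where it had the largest rise or fall of its list over the 7 pairs with a mean normalised count of 100 or more, and a family difference at 4 or more on the log2 scale. Ligands of a described receptor were named for their level. Folds against lines at 3 counts or fewer per library are bounds from that floor. Fold changes are from counts and levels from TPM. The 3-count floor covers counting error only, since molecules carried no identifiers.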

Additional observations from a re-analysis of the deposited data

Results flagged for a closer look

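The effect of resistance, the log2 fold change of a family's resistant lines over its sensitive line, was tested for a difference between families in 1 DESeq2 fit of all 33 libraries. The values here are differences of 4 or more on the log2 scale, each with a DESeq2 adjusted p under 0.05. Their causes were not tested, and family and culture medium cannot be told apart except between PEA and PEO, which shared a medium.

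LAMA3 had effects of both signs. Its effect was 2.33 in OVCAR3, -2.13 in OVCAR4, 3.91 in PEA and -1.99 in PEO. The differences were 4.46 for OVCAR3 minus OVCAR4, 4.32 for OVCAR3 minus PEO, -6.04 for OVCAR4 minus PEA and 5.90 for PEA minus PEO. LAMB3 rose in the PEA family (effect 6.14) beyond the OVCAR3 family (1.92), the OVCAR4 family (0.31) and the PEO family (-0.20), with differences of -4.22, -5.83 and 6.34. LAMA4 had an effect of 7.82 in PEA and differed by -6.35 from OVCAR3 to PEA, by -6.11 from OVCAR4 to PEA and by 7.37 from PEA to PEO. The effect of 1.47 in OVCAR3 averages lines that differ, with log2 fold changes in the pairs of 4.11 in OVCAR3 ResA and -1.27 (not called) in OVCAR3 ResB, and that of 1.71 in OVCAR4 over 3.50 in OVCAR4 ResA and -0.76 (not called) in OVCAR4 ResB.

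Among receptor chains, ITGB3 had an effect of -5.69 in PEA against 3.97 in OVCAR4, 1.78 in OVCAR3 and 0.84 in PEO, which gave differences of 9.67 (OVCAR4 minus PEA), 7.47 (OVCAR3 minus PEA) and -6.53 (PEA minus PEO). The collagen receptor chains ITGA1 and ITGA2 moved in opposite directions between PEA and PEO, by -5.87 for ITGA1 and 6.75 for ITGA2, and ITGA2 by -4.65 for OVCAR4 minus PEA. ITGA11 differed by 7.99 between OVCAR3 and PEA, by 5.22 between OVCAR4 and PEA and by -8.08 for PEA minus PEO, where the PEO effect of 3.30 averages lines with log2 fold changes of 6.86 (PEO6) and -0.31 (PEO4, not called) in the pairs. ITGA4 differed by 6.25 for OVCAR3 minus PEA, and ITGB6 by 4.39 for OVCAR4 minus PEO, where it rose by 2.25 in the first and had an effect of -2.14 in the second.

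The remaining values were for genes at 10 counts or fewer in every library of 2 or more lines, where the fitted size depends on the model. They were ITGB7 at -7.84 for OVCAR3 minus PEA and -6.19 for OVCAR4 minus PEA, ITGAM at 4.97 and 4.06 for the same differences, and LAMC3 at 6.63 for OVCAR3 minus PEA, 6.41 for OVCAR4 minus PEA, -5.37 for OVCAR3 minus PEO, -5.59 for OVCAR4 minus PEO and -12.00 for PEA minus PEO. The same limit holds for LAMA4 (9, 3 and 4 counts in PEA1, 5, 2 and 3 in OVCAR4 and 2, 2 and 4 in OVCAR4 ResB), for ITGA11 in OVCAR3, OVCAR3 ResA, the OVCAR4 family and PEO4, for ITGB3 in PEO4 and for ITGA4 in OVCAR3, OVCAR4 and OVCAR4 ResB.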

How the results depend on the processing

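Over 11 alternatives, 1740 values of called genes were recomputed, of which 1402 stayed called, 338 were no longer called and none changed direction. Of 96 counts of called genes under alternatives other than leaving out a replicate or family, 75 stayed within 1.5 times the main count. OVCAR3 ResB against OVCAR3 (8 called) gave 3 with edgeR, 13 with all libraries in one fit and, with limma, 0 on log2(TPM + 1), 0 on log2(TPM + 0.1) and 2 with the 1 TPM filter (7 and 9 at an unadjusted p under 0.05 behind the zeros). OVCAR4 ResA against OVCAR4 (9) gave 0 with edgeR (1.4%, 11 members unadjusted). It gave 0 in all 3 limma fits (0%, 0% and 2.31%, 10 members unadjusted in each). OVCAR4 ResB against OVCAR4 (9) gave 0, 0 and 3 with limma (0%, 1.54% and 4.78%, 11 members unadjusted behind each zero). OVCAR3 ResB against OVCAR3 ResA (5) gave 2 with edgeR (8.87%) and 11 in one fit (28.0%). With limma it gave 0, 1 and 1 (0.0275%, 2.74% and 6.2%, 5 members unadjusted behind the zero). PEO6 against PEO4 (18) gave 1, 4 and 8 with limma (1.25%, 2.89% and 7.79%). The limma fits use TPM, on which the median of all genes with the 1 TPM filter moved to 0.44 and 0.47 (log2) in OVCAR4 ResA and OVCAR4 ResB and to 0.14 and 0.11 in OVCAR3 ResA and OVCAR3 ResB.

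Leaving out each replicate gave 17 to 19 called genes for OVCAR3 ResA, 4 to 6 for OVCAR3 ResB, 4 to 14 in OVCAR4 ResA, 7 to 15 in OVCAR4 ResB, 15 to 18 in PEA2, 10 to 18 in PEO4 and 19 to 20 in PEO6. Between resistant lines it gave 3 to 7 (OVCAR3 family), 11 to 17 (OVCAR4 family) and 6 to 23 (PEO family), and over lines 0 to 2. For family differences it was 6 to 9 (OVCAR3 and OVCAR4), 20 to 21 (OVCAR3 and PEA), 15 to 19 (OVCAR3 and PEO), 16 to 18 (OVCAR4 and PEA), 9 to 13 (OVCAR4 and PEO) and 20 to 21 (PEA and PEO). Counts moved by more than 1.5 times without replicate 1 in OVCAR3 ResB (4), OVCAR4 ResA (14), OVCAR4 ResB (15), PEO4 (11), PEO6 against PEO4 (10) and over lines (2), without replicate 2 in OVCAR3 ResB (4), OVCAR4 ResA (4), PEO4 (10), PEO6 against PEO4 (6), OVCAR3 ResB against ResA (3), OVCAR4 ResB against ResA (11) and the OVCAR3 and OVCAR4 (6) and OVCAR4 and PEO (9) differences, and without replicate 3 in OVCAR4 ResA (4). The share of all genes called moved too, between 1.94% and 40.8% in OVCAR4 ResA, 4.26% and 46.1% in OVCAR4 ResB, 3.02% and 12.5% in OVCAR3 ResB, 18.3% and 37.4% in PEO4 and 4.81% and 32.7% in PEO6 against PEO4. It was 29.9% to 34.3% in OVCAR3 ResA, 26.7% to 44.7% in PEA2 and 23.0% to 32.8% in PEO6. Between resistant lines it was 5.15% to 23.5% (OVCAR3 family) and 12.5% to 28.7% (OVCAR4 family), and over lines 0.173% to 0.507%. For the family differences it was, in the order above, 12.4% to 21.5%, 28.8% to 34.6%, 20.4% to 27.6%, 31.7% to 40.2%, 21.8% to 39.1% and 30.1% to 40.1%. Fewer libraries were tested in each case. Without each family in turn, 0 of the 34 were called over lines (DESeq2, 0.401%, 0.323%, 0.38% and 1.19% of all genes). At an unadjusted p under 0.05 there were 4, 7, 8 and 8, a cut for which the share of all genes was not counted.

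The replicate block changed the count by more than 1.5 times only for OVCAR4 ResB against OVCAR4 ResA, where the replicate numbers paired the libraries. There 18 were called with it (32.8% of all genes) and 11 without (12.9%). Without the block 15 were called for OVCAR3 ResA (30.1%), 9 for OVCAR3 ResB (9.81%) and 12 for OVCAR4 ResA (21.5%). The causes of these changes were not tested. Depth limits ITGA8, ITGAL, ITGAM and ITGAX, whose levels in most lines lie at or near the 3-count floor.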
